A study of Hordeum vulgare with 18 samples.

Results

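The photosystem and light-harvesting genes of highland barley were described in leaf and root under 3 rates of organic fertilizer nitrogen. A locus belonged to the group when the protein name in its deposited annotation held the words photosystem, chlorophyll a-b binding or oxygen-evolving enhancer and it had a count in any library. Of 66 loci with such a name, 6 had no count in any library and D1007_48858, annotated as PsbS, was left out, which left 59 of the 32529 loci with a count. By their names 26 were antenna loci, 25 core loci, 3 loci of the oxygen-evolving complex and 5 assembly factors. Of the 59, 6 were assembled from the reads and are named here by annotation and scaffold position.

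Photosystem II takes electrons from water and passes them through the cytochrome b6-f complex to photosystem I, which reduces ferredoxin. Each photosystem has a core that carries the reaction centre and a belt of antenna proteins that bind chlorophyll a and b, Lhcb proteins for photosystem II and Lhca proteins for photosystem I. The PsbO, PsbP and PsbQ proteins shield the site of water oxidation, and assembly factors bind precursors of the complexes but are absent from the finished ones. In leaves these proteins are among the most abundant, antenna genes are encoded in the nucleus, and the central core subunits are encoded in the plastid.

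RNA came from 18 samples of barley (Hordeum vulgare) at flowering, leaf and root at each rate with 3 libraries per group, from pots calculated for 3.5 kg of soil in which organic fertilizer supplied 0, 40 or 100% of the nitrogen. The doses per pot were given in mg. Pots at 0%, called the controls here, had urea at 357, superphosphate at 1545 and potassium sulfate at 140, with no organic fertilizer. At 40% the urea dose was 215, that of superphosphate 1443, that of potassium sulfate 122 and that of organic fertilizer 1117. At 100% urea was left out, and the doses were 1289 for superphosphate, 96 for potassium sulfate and 2793 for organic fertilizer, so that total nitrogen, phosphorus and potassium were meant to be equal. Titles name leaf and root, whereas the design text divides plants into above-ground and below-ground parts. No source says whether the libraries within a group were from different plants, so p-values measure the spread between these samples.

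Total counts were 16489656 to 18985201 per leaf library and 12970908 to 16862820 per root library. Levels are counts per 1000000 of the library total (CPM), or the same after division by gene length (TPM) where loci are compared with each other. Levels, their sums and overlaps between groups carry no TMM factors, the scaling of libraries used for the changes. By library size alone the median leaf change of all genes was -0.33 at 100% against 0%, against -0.07 with TMM. At 100% against 40% it was -0.28, against -0.03. CPM levels at 100% can thus lie lower than the fitted changes do. Changes are log2 fold changes ± SE from edgeR, and a change was called at a p below 0.05 after Benjamini-Hochberg adjustment over all genes tested in that fit. In leaf 51 of the 59 loci passed the filter on low counts, 25 antenna, 18 core, 3 oxygen-evolving and 5 assembly loci, and in root 9 passed.

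The tissue labels were checked against markers. The 12 loci of Rubisco small subunits, Rubisco activase and phosphoribulokinase summed to 11980 to 36002 CPM in leaf libraries and to 1.12 to 2.60 CPM in root libraries. In leaf the sums were 11980, 22199 and 14032 CPM in the controls, 25424, 25234 and 18082 CPM at 40%, and 35499, 36002 and 34222 CPM at 100%. At 100% against 0%, 9 of the 12 were called higher and 0 lower, where 13.0% of all genes were called higher. Of the 21 loci on the root list, those of the high-affinity nitrate transporters 2.1 and 2.3 were at 0 in all 9 leaf libraries. Nicotianamine synthase 9 was higher in leaf, at 332 to 2485 CPM, than in root, at 26.5 to 141 CPM. The whole root list summed to 1906, 593 and 2510 CPM in the control leaves, 476, 552.5 and 687 CPM at 40%, and 424.5, 800 and 429 CPM at 100%. In root libraries it summed to 270 to 912 CPM, so the list as a whole did not separate root from leaf. Of its 5 loci tested in leaf, 2 were called higher and 1 lower at 100% against 0%, 0 at 40% against 0%, and 2 higher and 0 lower at 100% against 40%. The probable nitrate transporter 2.4 D1007_49225 was at 2.24 to 7.49 CPM in the control leaves, 0.632 to 4.84 CPM at 40% and 23.1 to 77.7 CPM at 100%. Casparian strip membrane protein 2 D1007_59456 was at 1.54 to 3.80 CPM, 5.37 to 9.44 CPM and 37.2 to 55.4 CPM in the same order, and at 0 to 1.77 CPM in root. The part of the root-list loci in the leaf results was not tested. The 3 secondary-wall cellulose synthase loci, used as stem markers, summed to 21.2 CPM in the 40% leaf library 1 and to 57.4 CPM in library 3, and to at most 0.263 CPM in the other leaf libraries. In root libraries they summed to 8.06 to 234 CPM. Pollen and anther markers summed to 0.943 to 12.6 CPM in leaf and to 169 to 1035 CPM in root, so neither list was confined to the organ it was chosen for.

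Members held a large share of leaf RNA. They took 9.49, 13.8 and 7.40% of all counts in the control leaves, 14.3, 16.9 and 15.6% at 40%, and 6.81, 7.57 and 10.2% at 100%. Per length, the most abundant locus was the Lhcb1 locus D1007_43312, a major trimer-forming antenna protein of photosystem II (scaffold SDOW01000586.1, 1886815 to 1887615, plus strand), at a mean of 30038 TPM over the 9 leaf libraries. It was followed in the antenna by D1007_36584, annotated as chlorophyll a-b binding protein 7, an Lhca2-type protein (10671 TPM), by D1007_59315, an Lhcb1-type protein of maize by annotation (9873 TPM), and by the minor antenna CP29.1 D1007_49866 (7663 TPM). The most abundant core loci were PsaK D1007_32224 (8100 TPM), PsbR D1007_17219 (7723 TPM), PsaD D1007_50003 (6194 TPM) and PsaG D1007_03365 (4839 TPM). PsbO D1007_20429 was at 5430 TPM and PsbP D1007_53488 at 4688 TPM. Assembly factors were far lower, the highest being PSB27-H1 D1007_45842 at 461.5 TPM and HCF136 D1007_08270 at 224.3 TPM.

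The control leaves were not alike. Markers of ageing leaves (22 loci, 4 of them above the filter in leaf) summed to 16198, 875 and 15617 CPM in control leaves 1, 2 and 3, to 343, 418 and 374 CPM at 40%, and to 5547, 1467 and 1637 CPM at 100%. The sum was led by the cysteine protease SAG39 D1007_05290, at 15139, 749 and 14013 CPM in the controls. Members were mostly higher in control leaf 2 than in the other control leaves, in 41 of the 51 tested loci and in 23 of the 25 antenna loci. The median ratio of control leaf 2 to the mean of controls 1 and 3 was 2.43 for antenna, 1.39 for core, 1.78 for oxygen-evolving and 1.31 for assembly loci. These counts and ratios, in CPM, were not computed over all genes, so they do not show whether the pattern is particular to members. The part of the ageing markers in the results on control leaves was not tested. In bulk leaf RNA, fewer cells of a type and less RNA per cell cannot be told apart.

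Summed over a class, antenna, core and oxygen-evolving RNA was highest at 40%, and assembly RNA at 100%. Antenna loci summed to 57719, 86603 and 46475 CPM in the controls, 83585, 101070 and 91119 CPM at 40%, and 41367, 44109 and 65120 CPM at 100%. Core loci summed to 25095, 30849 and 16900 CPM, then 38534, 42735 and 44870 CPM, then 17857, 21825 and 24203 CPM in the same order. The core sums at 40% lay above all other libraries, while the antenna sums at 40% overlapped those of the controls through control leaf 2. Assembly loci summed to 317, 559.4 and 316.5 CPM in the controls, 621, 734 and 754 CPM at 40%, and 1056, 1283 and 1361 CPM at 100%, and these 3 groups did not overlap. The ratio of antenna to core counts was 2.30, 2.81 and 2.75 in the controls, 2.17, 2.37 and 2.03 at 40%, and 2.32, 2.02 and 2.69 at 100%, so that the groups overlapped. Core loci with names of plastid genes, such as D1 and D2, had few counts, so the core sums come almost wholly from other core loci. The PsbR loci gave 4005 to 8784 CPM of them.

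**Figure D1:**
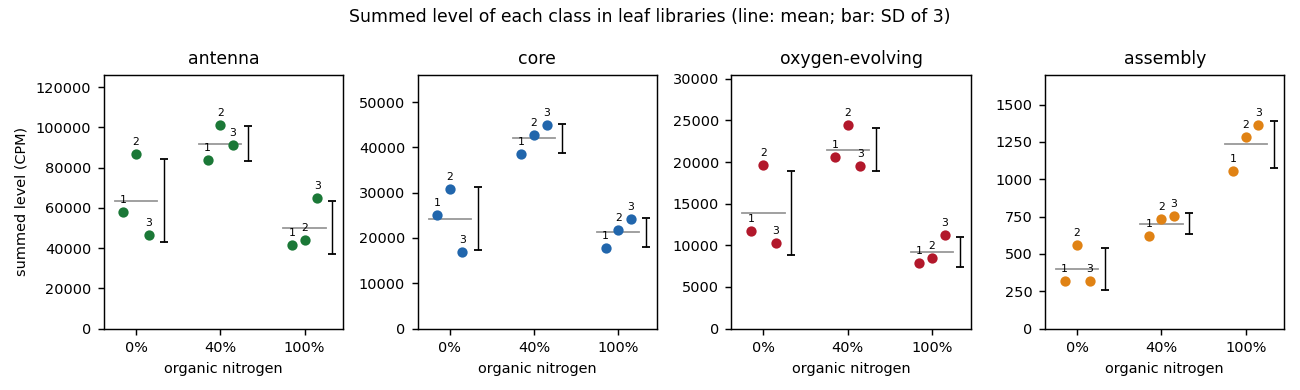
Summed level (CPM) of the antenna, core, oxygen-evolving and assembly loci in each leaf library, by organic nitrogen rate. Points are libraries with their replicate number, lines are means and bars are SDs of 3. The assembly sums at 100% (1056 to 1361 CPM) lie above all others, while the other 3 classes have their highest means at 40%.

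Leaves at 100% organic nitrogen were compared with the control leaves, both with leaves at 40%, so the comparisons share libraries. At 100% against 0%, all 5 assembly factors rose, 2 antenna loci rose and none fell, 2 core loci rose and 2 fell, and no oxygen-evolving locus was called. That made 9 loci higher and 2 lower of 51, where 13.0% of all genes tested were called higher and 9.98% lower. Median log2 changes were 0.03 for antenna, 0.20 for core, -0.34 for oxygen-evolving and 1.77 for assembly loci, against -0.07 over all genes. All 3 libraries at 100% lay above all controls in 10 loci and below them in 6, as did 14.1% and 30.4% of all genes. Without control leaf 1 the loci called higher were 4, and without control leaf 2 they were 14. Genes called in either direction numbered 2756 and 3667 in these fits (57.9 and 59.3% higher), against 4597 in the main fit (56.5% higher).

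At 40% against 0%, 0 of the 51 loci were called by edgeR, where 0.00998% of all genes were called in either direction. The fitted change was above 0 in 46 of the 51, with medians of 0.87 for antenna, 0.63 for core, 0.57 for oxygen-evolving and 0.60 for assembly loci, against -0.01 over all genes. An unadjusted p below 0.05 was found for 24 of the 51 loci, and for 3635 of the 20032 genes tested. In all 3 libraries at 40%, 30 loci were above all controls and 1 was below, where 14.0% of all genes were above and 13.8% below. DESeq2 called 16 loci higher and 1 lower, among 1585 genes called in either direction, 47.1% of them higher. With limma voom and sample weights, 21 loci were higher and 1 lower, among 2123 genes called, 45.7% of them higher. Without control leaf 2, edgeR called 17 loci higher, among 1035 genes called in either direction, 47.3% of them higher. Control leaf 2 as the only control leaves 1 library in that group. A count of calls from that fit could not decide whether members differed from it.

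At 100% against 40%, 4 loci rose and 11 fell, where 11.1% of all genes were called higher and 7.52% lower. Median changes were -1.00 for antenna, -0.53 for core, -0.98 for oxygen-evolving and 1.13 for assembly loci, against -0.03 over all genes. In 33 loci all libraries at 100% were below all at 40%, and in 6 above, as in 28.8% and 13.9% of all genes. Leaving out 1 library of these groups left 3 to 10 loci called lower. Calls over all genes also fell, from 3730 to 1501, 2046 and 1934 without 40% leaf 1, 2 or 3, with 3, 3 and 4 loci lower. Without 100% leaf 1 or 2 they numbered 2755 and 3182, with 6 and 4 loci lower. This comparison uses no control leaf.

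**Figure D2:**
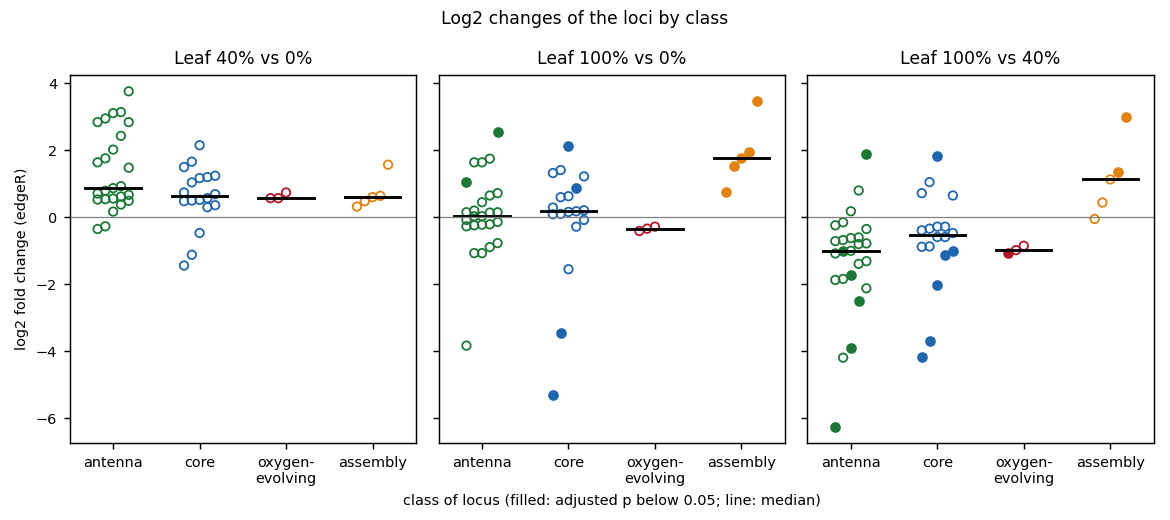
Log2 fold changes (edgeR) of the 51 tested loci by class in the 3 leaf comparisons. Each point is a locus, filled where the adjusted p is below 0.05, and lines are class medians. The 5 assembly loci are all filled and above 0 at 100% against 0%, no locus is filled at 40% against 0%, and 11 of the 15 filled loci at 100% against 40% are below 0.

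The highest group mean was at 40% for 38 of the 51 loci, at 100% for 9 and at 0% for 4. By class, it was at 40% for 22 of 25 antenna, 12 of 18 core and 3 of 3 oxygen-evolving loci but for 1 of 5 assembly loci, and at 100% for 4 of 5 assembly loci. These counts describe the means and carry no test.

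**Figure D3:**
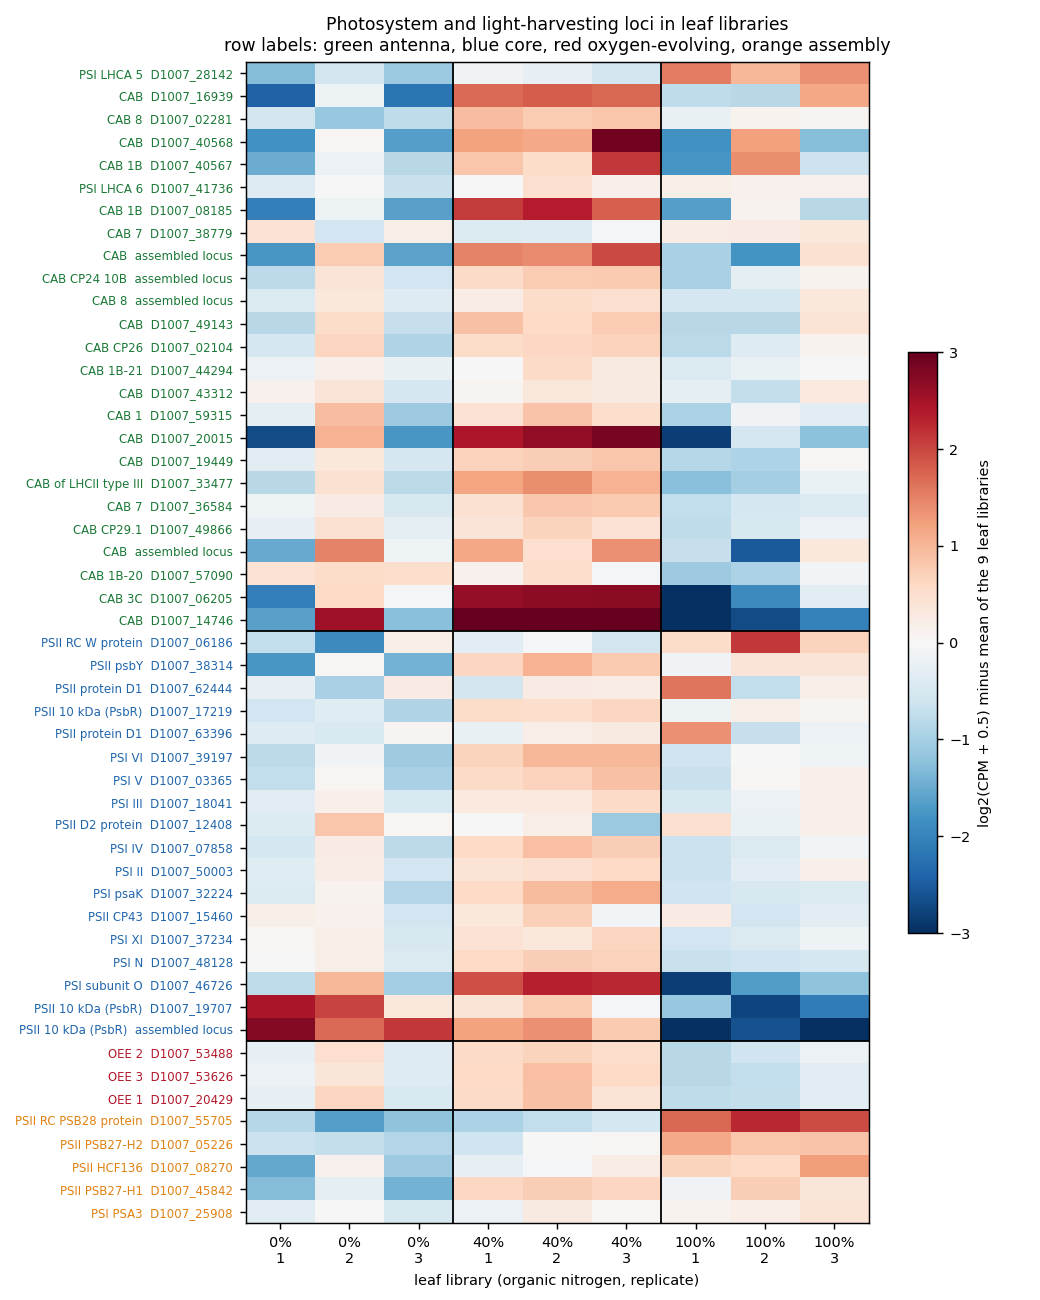
Level of each of the 51 tested loci in the 9 leaf libraries, as log2(CPM + 0.5) minus the locus mean over the 9. Rows are loci by class, columns are libraries by rate and replicate, and colours saturate at 3 and -3. The PSB28 and PSB27-H2 rows are red at 100% and blue or pale elsewhere, most antenna rows are red at 40% and blue in control leaves 1 and 3, and the last 2 core rows are red in the controls and blue at 100%.

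No change was called at the 3 most abundant antenna loci of photosystem II. Lhcb1 D1007_43312 was at 19908, 23752 and 12755 CPM in the controls, 19201, 22826 and 21654 CPM at 40%, and 14713, 11114 and 22324 CPM at 100%. The groups overlapped, and its log2 change was 0.03 ± 0.40 at 100% against 0% (adjusted p = 0.97) and 0.17 ± 0.40 at 40% against 0% (adjusted p = 0.87). It held 22.6 to 23.8% of antenna counts at 40%, 27.4 to 34.5% in the controls and 25.2 to 35.6% at 100%. The maize-type CAB1 locus D1007_59315 was at 4555, 10581 and 2611 CPM, then 7562, 10036 and 8073 CPM, then 2870, 5167 and 4458 CPM at 0, 40 and 100%. Control leaf 2 was its highest library, and it was not called in any leaf comparison (adjusted p = 0.28 to 0.72). CP29.1 D1007_49866, a monomeric antenna that links trimers to the core, was at 6076, 9954 and 5943 CPM, then 9511, 11554 and 9860 CPM, then 4279, 5213 and 6420 CPM, and was likewise not called (log2 change -0.71 ± 0.33 at 100% against 40%, adjusted p = 0.16).

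Several antenna loci of photosystem II fell from 40% to 100%. Lhcb3 D1007_33477, a further trimer protein (SDOW01000385.1, 3276246 to 3277485, plus strand), was at 1645, 4001 and 1650 CPM in the controls, 6646, 7705 and 6012 CPM at 40%, and 1224, 1432 and 2546 CPM at 100%. The 3 libraries at 40% were above the other 6, and the change at 100% against 40% was -1.71 ± 0.45 (adjusted p = 0.027). The tomato-type CAB1B locus D1007_08185 was at 97.8, 364 and 131 CPM, then 1747, 2081 and 1407 CPM, then 129, 435 and 228 CPM. It too was highest in all libraries at 40%, with a change of -2.49 ± 0.57 at 100% against 40% (adjusted p = 0.016). CAB3C D1007_06205 was at 7.78, 51.4 and 32.1 CPM, then 213, 220 and 222 CPM, then 1.24, 8.62 and 26.4 CPM, a change of -3.91 ± 0.95 at 100% against 40% (adjusted p = 0.021). The calls of CAB1B and CAB3C did not hold without 40% leaf 1 (adjusted p = 0.051 and 0.057) or 40% leaf 2 (0.052 and 0.053), and that of CAB3C not without 40% leaf 3 (0.052) or 100% leaf 2 (0.061).

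The Lhcb1-type locus D1007_14746 had the largest fitted fall of all members at 100% against 40%. It was at 14.6, 269.5 and 18.9 CPM in the controls, 581, 593 and 469 CPM at 40%, and 0.471, 6.76 and 10.8 CPM at 100%. Control leaf 2 was far above the other controls, all libraries at 40% were above the rest, and all at 100% were below the rest. The change was -6.25 ± 1.38 at 100% against 40% (adjusted p = 0.015), and -3.83 ± 1.24 at 100% against 0% (adjusted p = 0.051). Split by mean leaf level, a split made after the values were seen, the 11 antenna loci at or above 1000 CPM had median changes of 0.56, -0.14 and -0.71 at 40% against 0%, 100% against 0% and 100% against 40%. The 14 tested loci below 1000 CPM had medians of 2.23, 0.55 and -1.61. Many of the lower loci carry the same annotation as Lhcb1 D1007_43312, and reads of near-identical copies could be divided between loci, so the level of a single copy is uncertain.

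The antenna loci of photosystem I held the 2 antenna rises at 100%. LHCA5 D1007_28142, a minor antenna protein that joins photosystem I to the NDH complex in Arabidopsis (SDOW01000300.1, 2729754 to 2731918, minus strand), was at 22.4, 38.0 and 25.7 CPM in the controls, 52.3, 47.0 and 38.25 CPM at 40%, and 164, 113 and 146.5 CPM at 100%. Its libraries at 100% were well above the others, with a change of 2.55 ± 0.27 against 0% (adjusted p = 0.00053) and 1.88 ± 0.27 against 40% (adjusted p = 0.0022). A second annotation field calls this locus P4, another Lhca type. Against control leaf 2 alone its change was 2.13 (adjusted p = 0.034). LHCA6 D1007_41736, the partner of LHCA5 in Arabidopsis and named chlorophyll a-b binding protein 7 in another field, was at 335, 443 and 274 CPM, then 436, 609 and 487 CPM, then 497, 479.5 and 482 CPM. All libraries at 100% were above the controls and within the range of those at 40%, and no change was called (0.72 ± 0.26 at 100% against 0%, adjusted p = 0.07).

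A short locus of the Lhca3-type protein 8, D1007_02281 (SDOW01000017.1, 1524098 to 1524730, plus strand), was at 58.4, 38.7 and 49.8 CPM, then 162, 144.5 and 152 CPM, then 72.5, 91.2 and 89.7 CPM at 0, 40 and 100%. The groups did not overlap, and it rose at 100% against 0% by 1.04 ± 0.20 (adjusted p = 0.007), while its larger change at 40% against 0% was not called (1.64 ± 0.21, adjusted p = 0.069). Upstream on the same scaffold, at 1517696 to 1519508, lies an assembled locus of the same protein at 2620 ± 814, 3849 ± 469 and 2527 ± 896 CPM (SD, n = 3), which was not called in leaf. The Lhca2-type D1007_36584 was at 5439, 7037 and 4302 CPM, then 8257, 10414 and 10339 CPM, then 3611, 4118 and 4473 CPM. All 3 libraries at 40% were above the others, and the change of -1.00 ± 0.30 at 100% against 40% passed narrowly (adjusted p = 0.047) and was lost in 10 of 16 alternatives. The barley locus 1B-20 D1007_57090, an Lhca4-type protein, was the only antenna locus tested with its highest mean at 0%, at 5060, 5511 and 5384 CPM, then 4121, 5406 and 3686 CPM, then 1766, 1928 and 3517 CPM. It was not called at 100% against 0% (-0.89 ± 0.34, adjusted p = 0.088), and it overlaps the neighbouring locus D1007_57091.

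The 9 tested core loci of photosystem I had their highest means at 40%. All 9 had a fitted change above 0 at 40% against 0% (median 1.04) and below 0 at 100% against 40% (median -0.87), and these comparisons share the 40% libraries. At 100% against 0%, 6 were above 0 and 3 below (median 0.16, from -1.55 to 0.63). The grouping by photosystem was made after the values were seen. Of the 9, 3 fell at 100% against 40%, PSAO, PsaN and PsaK. PSAO D1007_46726, a small subunit near the docking site of mobile antenna (SDOW01000687.1, 1018222 to 1018961, plus strand), was at 397, 1332 and 327 CPM in the controls, 2546, 3352 and 3226 CPM at 40%, and 94.6, 209 and 288 CPM at 100%. The groups did not overlap, and the change was -3.70 ± 0.62 at 100% against 40% (adjusted p = 0.0048) and -1.55 ± 0.57 at 100% against 0% (adjusted p = 0.078).

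PsaN D1007_48128, a lumenal subunit on the plastocyanin side, was at 2227, 2518 and 1637 CPM, then 3385, 3682 and 3607 CPM, then 1407, 1469 and 1537 CPM. Its groups did not overlap in CPM either, and it fell from 40% to 100% (log2 change -1.02 ± 0.26, adjusted p = 0.024). PsaK D1007_32224, which helps hold the antenna belt, was at 1710, 2416 and 1223 CPM, then 3395, 4340 and 4924 CPM, then 1501, 1623 and 1706 CPM. All libraries at 40% were above the rest, and the change of -1.14 ± 0.32 at 100% against 40% (adjusted p = 0.033) was lost in 9 of 16 alternatives. PsaD D1007_50003, the ferredoxin docking subunit, was at 2505 ± 751, 4044 ± 286 and 2440 ± 683 CPM (SD, n = 3). PsaG D1007_03365, an antenna-binding subunit, was at 1078 ± 428, 2481 ± 283 and 1382 ± 385 CPM. Neither was called in leaf (adjusted p = 0.13 to 0.66), although PsaG passed DESeq2 at 40% against 0% (adjusted p = 0.009).

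PsbR, a subunit of photosystem II that helps bind the oxygen-evolving proteins, changed in opposite directions at its 3 loci at 100% against 0%. D1007_17219 (SDOW01000157.1, 227840 to 230122, minus strand) was at 3000, 3476 and 2385 CPM in the controls, 6492, 6456 and 7033 CPM at 40%, and 3989, 5077 and 4726 CPM at 100%. D1007_19707 (SDOW01000186.1, 84019 to 85947, minus strand) was at 5094, 3810 and 1176 CPM, then 1237, 1583 and 912 CPM, then 422, 137 and 216 CPM. An assembled locus on the same scaffold and strand, at 79336 to 80699, was at 690, 331 and 444 CPM, then 237, 263 and 175 CPM, then 6.95, 16.2 and 8.41 CPM. The first locus did not overlap between groups and was highest at 40%, while both others were lowest at 100%, with no overlap with the controls.

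At 100% against 0% the assembled PsbR locus fell (log2 change -5.30 ± 0.44, adjusted p = 0.00025), as did D1007_19707 (-3.45 ± 0.62, adjusted p = 0.0049), while D1007_17219 rose by 0.88 ± 0.27 (adjusted p = 0.041). The last call was lost in 11 of 17 alternatives. Against 40%, the assembled locus changed by -4.18 ± 0.42 (adjusted p = 0.00068) and D1007_19707 by -2.01 ± 0.59 (adjusted p = 0.04). The share of summed PsbR counts in D1007_17219 was 34.2, 45.6 and 59.5% in the controls, 81.5, 77.8 and 86.6% at 40%, and 90.3, 97.1 and 95.5% at 100%, with no overlap of groups. Summed PsbR was at 8784, 7617 and 4005 CPM, then 7966, 8302 and 8120 CPM, then 4418, 5230 and 4950 CPM, and the sums at 0 and 100% overlapped through control leaf 3. Both falling loci have the barley PsbR protein as their best match and the rising one the spinach protein, and reads could be divided between such copies.

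PsbW, a small photosystem II core subunit, rose at one of its 3 loci. D1007_06186 was at 23.0, 9.78 and 44.4 CPM, then 31.0, 37.1 and 26 CPM, then 56.9, 168 and 61.8 CPM. All libraries at 100% were above the others, and the change was 2.14 ± 0.55 against 0% (adjusted p = 0.022) and 1.84 ± 0.54 against 40% (adjusted p = 0.042), the latter lost in 6 of 16 alternatives. D1007_18986 had 9 counts in all leaf libraries together, and D1007_06772 had 0 in leaf and 20 in root. PsbY D1007_38314, another small subunit, was at 490 ± 347, 1546 ± 226 and 1029 ± 187 CPM (SD, n = 3), with no call (1.32 ± 0.45 at 100% against 0%, adjusted p = 0.059).

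Of the core loci, 9 carry names of plastid genes (D1, D2, CP43, CP47 and PsaC), and all had few counts. The highest, D2 locus D1007_12408, had 1824 counts over all libraries, and the CP47 locus D1007_17441 had 1. Several carry the same name, so reads could be divided between them, and D1007_15461 is named D2 in one field and CP43 in another. Those tested in leaf, D1 D1007_62444 and D1007_63396, D2 D1007_12408 and CP43 D1007_15460, were not called in any leaf comparison.

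The 3 oxygen-evolving loci had their highest means at 40%, and 1 of them fell at 100% against 40%. PsbQ D1007_53626 was at 3956, 5685 and 3409 CPM in the controls, 6783, 8347 and 6721 CPM at 40%, and 2489, 2667 and 3525 CPM at 100%. Libraries at 40% were above all others, and the change was -1.08 ± 0.32 at 100% against 40% (adjusted p = 0.04). PsbO D1007_20429, the manganese-stabilising protein, was at 5427 ± 2360, 8057 ± 1400 and 3429 ± 558 CPM (SD, n = 3), and PsbP D1007_53488 at 4132 ± 1484, 6140 ± 299 and 2865 ± 683 CPM. At 100% against 40% their changes of -0.98 ± 0.37 and -0.85 ± 0.33 were not called by edgeR (adjusted p = 0.088 and 0.1) but were by DESeq2 (0.02 and 0.026).

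Assembly factors were the only class in which every tested locus rose at 100% against 0%. PSB28 D1007_55705, which in cyanobacteria binds early photosystem II intermediates (SDOW01001003.1, 604853 to 606182, minus strand), was at 51.3, 29.5 and 40.2 CPM in the controls, 48.4, 55.8 and 65.2 CPM at 40%, and 313, 452 and 366 CPM at 100%. The libraries at 100% were far above the other 6, which overlapped. The change was 3.47 ± 0.28 against 0% (11.1-fold, adjusted p = 0.00022) and 2.99 ± 0.27 against 40% (7.92-fold, adjusted p = 0.00048), and both held in every alternative run.

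PSB27-H2 D1007_05226, which in Arabidopsis takes part in processing the D1 precursor (SDOW01000040.1, 1692562 to 1696113, minus strand), was at 28.2, 26.8 and 24.1 CPM, then 29.2, 44.35 and 46.1 CPM, then 98.4, 79.35 and 81.2 CPM. No groups overlapped, and the change was 1.96 ± 0.24 against 0% (adjusted p = 0.00088) and 1.36 ± 0.24 against 40% (adjusted p = 0.0053). HCF136 D1007_08270, needed for assembly of the photosystem II reaction centre in Arabidopsis, was at 80.9, 257 and 110 CPM, then 197, 229 and 274 CPM, then 372.5, 353 and 554 CPM. Its libraries at 100% were above all others, with a change of 1.77 ± 0.42 against 0% (adjusted p = 0.016). That call did not hold without control leaf 1 (adjusted p = 0.051) or 3 (0.067), or with control leaf 2 as the only control (0.96 log2 units, adjusted p = 0.23).

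PSB27-H1 D1007_45842, a factor of photosystem II repair in Arabidopsis, was at 64.5, 131 and 58.8 CPM, then 243, 263.5 and 249.5 CPM, then 147, 265 and 204 CPM. The libraries at 40% and 100% overlapped, and all of them were above the controls. The change was 1.52 ± 0.34 at 100% against 0% (adjusted p = 0.012) and 1.57 ± 0.34 at 40% against 0% (adjusted p = 0.091). The first was lost without control leaf 1 (adjusted p = 0.051) and with control leaf 2 as the only control (adjusted p = 0.24). PSA3 D1007_25908, a factor of photosystem I accumulation in maize, was at 92.4, 115 and 83.2 CPM, then 102, 141 and 119 CPM, then 125, 134 and 155 CPM. All libraries at 100% were above the controls, a rise of 0.76 ± 0.23 (adjusted p = 0.038). Against control leaf 2 alone, the control with the lowest ageing marker sum, the changes were 3.90 for PSB28 (adjusted p = 0.01) and 1.92 for PSB27-H2 (adjusted p = 0.05, not called). Ageing markers also differed at 100% against 40%, where 3 of the 4 tested were called higher (median 2.56), and their part in the assembly rises was not tested.

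**Figure D4:**
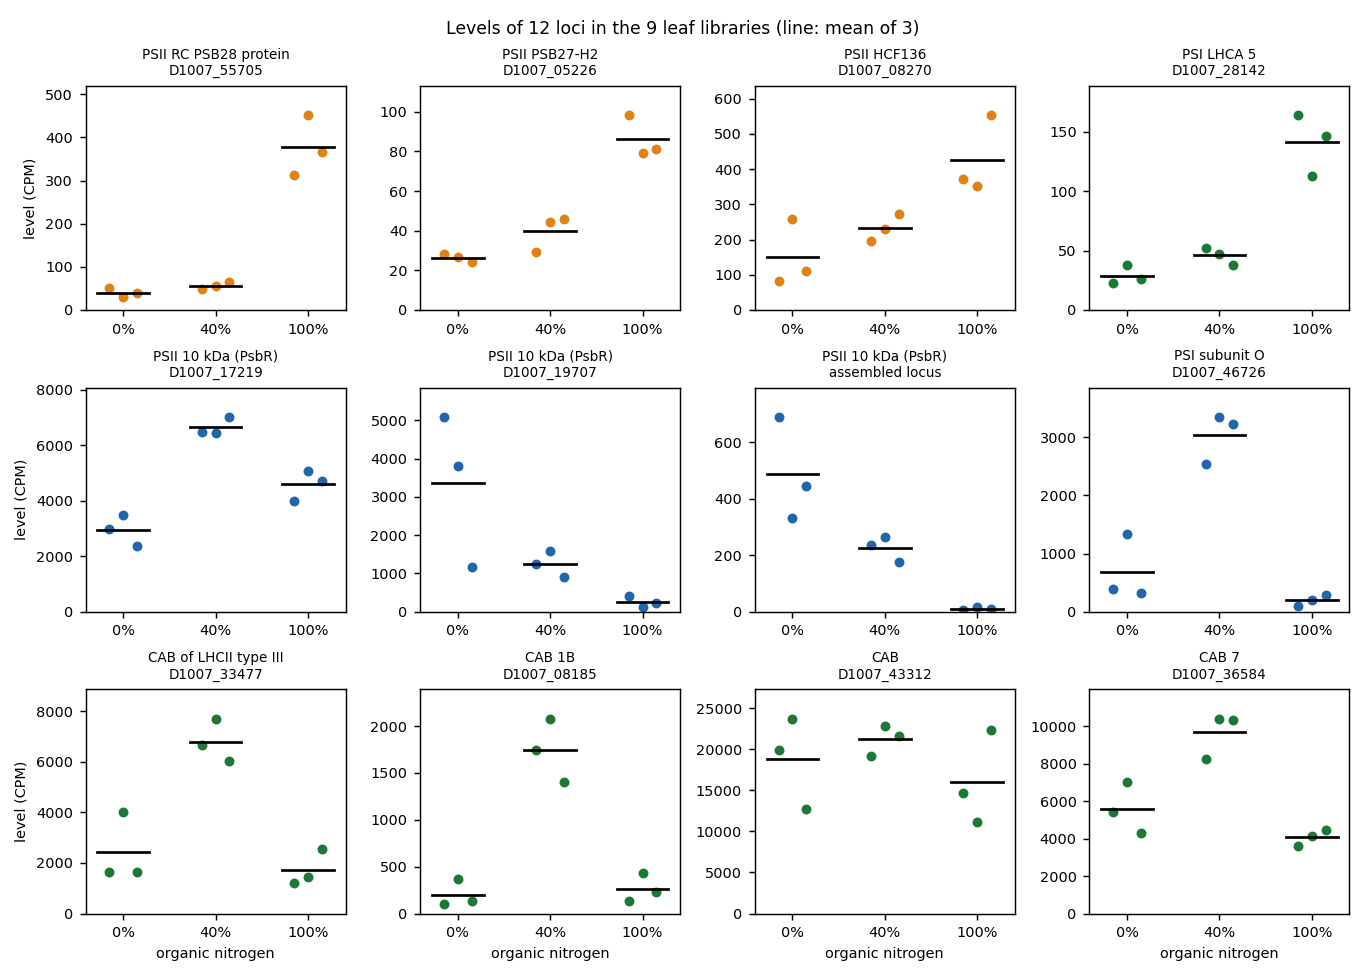
Level (CPM) of 12 loci in the 9 leaf libraries by organic nitrogen rate, on linear axes from 0. Points are libraries and lines are means of 3. PSB28, PSB27-H2, HCF136 and LHCA5 are highest at 100%, the 3 PsbR loci differ in direction, and PSAO, Lhcb3 (LHCII type III), CAB1B and chlorophyll a-b binding protein 7 are highest at 40%.

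Other genes of the thylakoid were read from lists of names. Among electron transport genes (cytochrome b6-f, plastocyanin, ferredoxins, ferredoxin reductases, NDH and ATP synthase subunits, PGR5 and PGRL1), 14 of 24 tested rose and 1 fell at 100% against 0%, with a median of 1.11. PGR5 D1007_11642, of cyclic electron flow, rose from 89.7 ± 18.8 to 334 ± 101 CPM (2.14 ± 0.27, adjusted p = 0.001). A ferredoxin locus assembled at SDOW01000465.1 from 737364 rose from 358 ± 122 to 1688 ± 620 CPM (2.47 ± 0.34, adjusted p = 0.0015). At 40% against 0%, 0 of the 24 were called (median 0.61), and at 100% against 40%, 8 rose and 0 fell (median 0.73), among them NDH subunit S D1007_15068 (1.21 ± 0.26, adjusted p = 0.014).

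Among 21 tested genes of antenna import, thylakoid shape and photosystem repair, 11 rose and 1 fell at 100% against 0% (median 0.96), 0 were called at 40% against 0% (median 0.10), and 13 rose and 0 fell at 100% against 40% (median 0.88). STN8 D1007_51511, a kinase that phosphorylates photosystem II core proteins in Arabidopsis, was at 103 ± 32.1, 218 ± 46.8 and 636 ± 64.9 CPM at 0, 40 and 100%. It rose by 2.88 ± 0.29 against 0% (adjusted p = 0.00042) and 1.79 ± 0.28 against 40% (adjusted p = 0.0034). FTSH9 D1007_48691, annotated as a metalloprotease of chloroplast or mitochondrion, rose by 1.68 ± 0.21 and 1.37 ± 0.21 in the same comparisons (adjusted p = 0.00092 and 0.0028). Of 11 loci of Rubisco or Rubisco activase, 8 rose at 100% against 0% (median 3.30). At 40% against 0%, 0 were called (median 2.61), and 1 rose at 100% against 40% (median 0.74). That locus, Rubisco activase 2 D1007_32322, was also 1 of the 8, and no small subunit locus was called at 100% against 40%. The shares of these lists stand beside the 13.0% of all genes called higher at 100% against 0% and the 11.1% at 100% against 40%.

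In root, members were near the limit of detection. All 59 together took 13.3 to 21.1 CPM per root library, and 21 had no count in any root library, where 3 counts correspond to 0.178 to 0.231 CPM. At 0%, 49 of 51 tested loci were higher in leaf than in root and 0 lower, where 25.9% of all genes were called higher and 30.3% lower. In root alone 9 members passed the filter on low counts, so most of the 51 entered this fit through their leaf counts. The direction of these calls was thus largely set by the filter, and they describe levels only. PsaF D1007_18041, the plastocyanin-binding subunit, had the smallest adjusted p (2.8e-10), followed by Lhcb1 D1007_43312 and PsbQ D1007_53626 (both 4.8e-10). Lhcb1 was at 0.0629, 0.178 and 0 CPM in the control roots, against 12755 to 23752 CPM in the control leaves. Fold changes against so few root counts depend on the fit and are not given for PsaF and Lhcb1, while PsbQ, with 147 counts in the control roots, was 10.75 ± 0.52 log2 units higher in leaf.

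Root counts were spread over loci unlike those of leaf. Of member counts in root, the assembled locus of protein 8 held 18.3%, PsbQ 17.1%, PsaG D1007_03365 13.3%, LHCB7 D1007_38779, a rare antenna protein that another field calls LHCII type 1, 9.24% and PSB27-H2 7.06%. In leaf these held 2.64, 4.27, 1.44, 0.115 and 0.0444%. Lhcb1 D1007_43312, with 16.5% of member counts in leaf, had 1.24% in root. Across rates no root comparison called any of the 9 tested loci, where 10.2% of all genes were called at 100% against 0%, 0.306% at 40% against 0% and 4.59% at 100% against 40%. With edgeR, 2, 1 and 1 of the 9 had an unadjusted p below 0.05 in these comparisons, as had 6166, 3295 and 4865 of the 21895 genes tested. DESeq2 called 0, 1 and 0 of the 9 higher, and at 40% against 0% it called 1155 genes in either direction.

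A CP24 locus assembled at SDOW01001634.1 from 128092 to 129648, a minor antenna protein of photosystem II, had 11 root counts at 0%, 81 at 40% and 33 at 100%. Its root levels were 0.0629, 0.237 and 0.362 CPM, then 1.38, 2.67 and 1.62 CPM, then 0.570, 0.548 and 0.993 CPM, and the groups did not overlap. The change at 40% against 0% was 3.01 ± 0.62 (adjusted p = 0.08). PsaG D1007_03365 was at 3.13 ± 1.33, 2.03 ± 1.00 and 1.28 ± 0.696 CPM in root (SD, n = 3), with no call at 100% against 0% (-1.37 ± 0.58, adjusted p = 0.15).

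**Figure D5:**
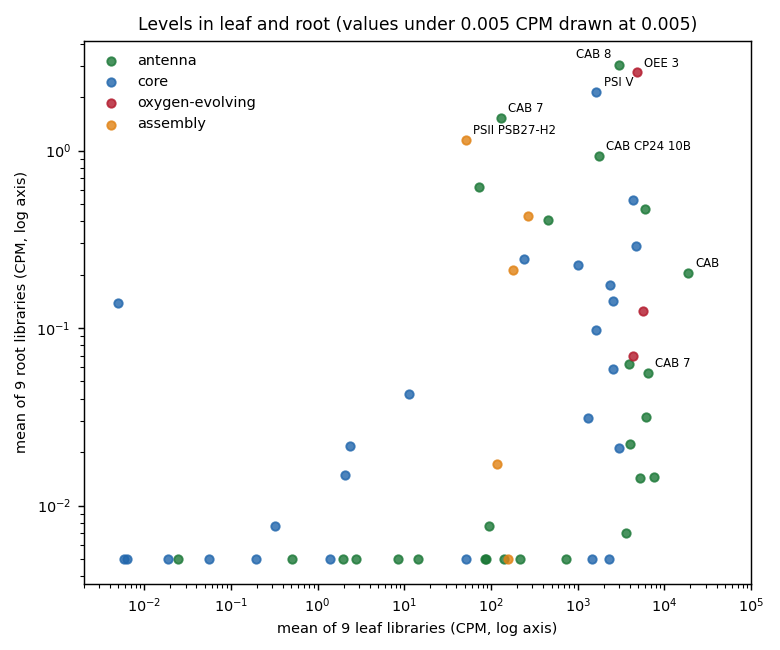
Mean level of each of the 59 loci over 9 leaf libraries (horizontal) and 9 root libraries (vertical), both in CPM on log axes, with values under 0.005 CPM drawn at 0.005. Points are loci coloured by class. The assembled locus of protein 8 (CAB 8), PsbQ (OEE 3), PsaG (PSI V), LHCB7 (CAB 7) and PSB27-H2 have the highest root levels, while Lhcb1, the highest in leaf, is at 0.206 CPM in root.

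The response to 100% was called different between leaf and root in 3 of the 51 loci tested. It was more positive in leaf at 2 and more negative at 1, where 8.71% and 7.20% of all genes were called. Only 9 members passed the filter on low counts in root alone. For most of the 51 a response in root could therefore hardly be measured, and a locus not called may still differ. PSB27-H2 D1007_05226 was at 1.43 ± 0.613 and 0.915 ± 0.350 CPM in root at 0 and 100%, and its response was 2.68 ± 0.44 log2 units higher in leaf (adjusted p = 0.0012). LHCA5 D1007_28142 was at 0.531 ± 0.255 and 0.863 ± 0.229 CPM in root, and its response was 1.94 ± 0.50 higher in leaf (adjusted p = 0.016), a call lost without control root 1 (0.062), control root 3 (0.066) or 100% root 3 (0.05). The assembled PsbR locus at SDOW01000186.1 had 1, 4 and 28 root counts at 0, 40 and 100%, a ratio of 29.7 per depth between 100 and 0% (exact binomial 95% interval 4.91 to 1210, counting error only). Its fitted response was lower in leaf (adjusted p = 0.0001), a difference whose size rests on the 1 root count at 0%.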

How the data were processed

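Per the labels' protocols, RNA was isolated with TRIzol and a NEBNext Ultra RNA kit was used for the libraries. The submitters' processing notes list DESeq2 1.20.0, HISAT2 2.0.5, fastp, featureCounts 1.5.0-p3 and CASAVA 1.8, with no roles. They also list the mouse builds GRCm38 and mm10, although the deposited loci lie on barley SDOW scaffolds. The sources used here do not give the assembly or whether counting used strand. The authors deposited whole-number read counts per locus for 18 libraries, with annotation and a gene length in bases. Of annotated loci, 75.6% have a length that is a multiple of 3, so it is mostly coding length, and TPM values were computed from it. The table has 68630 loci and 0 unused columns of values.

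Counts were tested with edgeR 4.0.16 (TMM factors, quasi-likelihood, limma 3.58.1, R 4.3.3) after filterByExpr (minimum count 10, minimum total 15), in separate fits for the 9 leaf libraries (20032 genes, 6 residual degrees of freedom) and the 9 root libraries (21895 genes). A fit of all 18 (24046 genes) gave leaf against root and the difference between responses. SEs were derived from the change and its F statistic. On simulated data the leaf fit recovered 2.49, 46.8 and 71.2% of genes changed 2-, 4- and 8-fold at 100% against 0% (19518 genes), and the root fit 20.4, 70.1 and 87.9% (21564 genes). Far fewer genes were changed in the simulations than were called in the real fits (4597 in leaf). Recovery after adjustment depends on that share, so these values do not give the recovery of the real fits. In leaf, 3 counts are 0.158 to 0.182 CPM. Python 3.11.15, pandas 2.3.3 and matplotlib 3.10.9 were used for summaries and figures.

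Alternatives were RLE factors, library size alone, TMM without the members, no filter, at least 5 CPM in 3 libraries, DESeq2 1.42.0, limma voom with sample weights, a replicate block and leaving out each library; fits with control leaf 2 as the only control were added after seeing the data. Members and gene lists were chosen with earlier results of these data known. Loci were named by rule: in each leaf comparison the 5 called loci of smallest adjusted p per direction, and the 4 most abundant per length of antenna and core and 2 of the other classes; in root and in leaf against root 3 per direction; for the difference between responses 3; from pathway lists the 2 called of smallest adjusted p. Other loci described, and the splits by photosystem and at 1000 CPM, were chosen after their values were seen.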

Additional observations from a re-analysis of the deposited data

Results flagged for a closer look

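The response to 100% organic nitrogen was called different between leaf and root, by the interaction term of edgeR's quasi-likelihood fit of all 18 libraries, at 3 loci. PSB27-H2 D1007_05226 had a response 2.68 ± 0.44 log2 units higher in leaf (adjusted p = 0.0012), and was called in all 17 alternatives. LHCA5 D1007_28142 had a response 1.94 ± 0.50 higher in leaf (adjusted p = 0.016). The PsbR locus assembled at SDOW01000186.1 from 79336 had a fitted difference of -9.65 ± 1.03 (adjusted p = 0.0001). Size and p rest on 1 root count at 0% against 28 at 100%, and the locus did not pass the filter on low counts in root alone.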

How the results depend on the processing

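Of 26 called tests of named loci, 16 were called under every alternative, 10 were lost under at least 1, and 0 changed sign; of 31 not called, 10 passed somewhere and 14 changed sign. Loci called higher at 100% against 0% (9) numbered 12 with DESeq2 and 4 to 14 when 1 library was left out. Those lower (2) numbered 5 with library size alone, 5 with DESeq2 and 2 to 3 with 1 left out. Genes called in either direction numbered 4597 in the main fit, 5194 with library size alone and 6347 with DESeq2. Without control leaf 1 they numbered 2756, and without control leaf 2 3667. At 40% against 0% (0 and 0), loci higher numbered 1 with no filter, 16 with DESeq2 and 21 with voom. They numbered 6 in a fit of all 18 libraries and 0 to 17 with 1 left out. Loci lower numbered 1 with DESeq2 and with voom. Genes called in either direction numbered 6 with no filter, 1585 with DESeq2 and 2123 with voom. They numbered 1518 in the fit of all 18 and 1035 without control leaf 2. At 100% against 40%, loci lower (11) numbered 17 with library size alone, 19 with DESeq2, 17 with voom and 3 to 10 with 1 left out. Loci higher (4) numbered 6 at most. Genes called in either direction numbered 3730 in the main fit, 4199 with library size alone, 5697 with DESeq2 and 3906 with voom. In root, 1 locus was higher at 100% against 0% in the fit of all 18 (501 genes called). At 40% against 0%, 1 was higher with DESeq2 (1155 genes called) and with voom (484). For the difference between tissues, loci higher in leaf (2) numbered 1 to 3 and lower (1) 1 to 2 with 1 left out, and 2 were lower with DESeq2. With 1 left out, medians ran from -0.52 to 0.03 (oxygen-evolving, 100% against 0%), 0.70 to 1.42 and 0.39 to 1.01 (antenna and oxygen-evolving, 40% against 0%) and -1.09 to -0.60 (antenna, 100% against 40%); library size alone gave -1.23 for oxygen-evolving loci at 100% against 40%. Library size alone moved the median of all genes to -0.33 at 100% against 0% (37.2% of calls higher, against 56.5%) and to -0.28 at 100% against 40% (36.9% against 59.6%). Uncalled changes that reversed at 100% against 0% were, with library size alone, D1007_43312 -0.23, D1007_32224 -0.15 and D1007_50003 -0.04, with voom D1007_59315 0.35, and with control leaf 2 only -0.33, -0.36 and -0.23 for the first 3. At 40% against 0%, control leaf 2 only gave D1007_43312 -0.18, D1007_59315 -0.32, D1007_20429 -0.03 and D1007_08270 -0.17, and at 100% against 40% voom gave D1007_45842 0.08. With 1 library left out at 100% against 0%, ranges were -0.30 to 0.26 (D1007_43312), -0.38 to 0.02 (D1007_36584), -0.63 to 0.48 (D1007_59315), -0.39 to 0.10 (D1007_49866), -0.12 to 0.41 (D1007_32224), -0.04 to 0.51 (D1007_50003), -0.62 to 0.03 (D1007_20429) and -0.50 to 0.08 (D1007_53488), at 40% against 0% -0.05 to 0.40 (D1007_43312), and at 100% against 40% -0.24 to 0.13 (D1007_45842) and -0.48 to 0.08 (D1007_43312). The cause of these changes was not tested. Labels do not pair the replicates, and residuals of same-numbered libraries correlated at -0.16 to 0.16; with the replicate block 7 loci were higher and 2 lower at 100% against 0%, 0 and 0 at 40% against 0%, and 3 and 9 at 100% against 40%. Depth limits the root, where most members had under 10 counts in all.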
